A study of Mus musculus with 6 samples.

Results

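The mitochondrial genome transcripts described here are all genes that the deposited count table places on chromosome MT, 37 of its 58735 genes. They comprise 13 protein-coding genes, 2 rRNAs and 22 tRNAs. The 13 are called mRNAs here gene by gene, although MT-ATP8 shares an mRNA with MT-ATP6, and MT-ND4L with MT-ND4. The rule used the listed chromosome and no measured value. The 6 RNA-Seq libraries were made from 22Rv1, a human castration-resistant prostate cancer cell line that expresses the androgen receptor. Of these, 3 came from parental cells given vehicle and 3 from 22Rv1 BL-B01D1_R, a subline kept in rising concentrations of BL-B01D1 until it was resistant. BL-B01D1 is an antibody-drug conjugate that binds EGFR and HER3 and carries a topoisomerase I inhibitor. The subline came from 1 selection, so the spread between libraries does not cover a repeated selection, and the labels do not say whether libraries of a group came from separate cultures. The p-values therefore measure the spread between these libraries, which may be technical. Although mouse is given as the species in the sample labels, the cell line, the gene identifiers and the stated genome build (hg38) are human, and all values are read as human. The libraries held 13821639 to 17251491 counts. All 10 prostate luminal markers examined were detected (summed 3262 to 3329 CPM, counts scaled to an effective library size of 1000000, in parental and 3337 to 3371 CPM in resistant libraries). Of 9 markers of other cell types, CD3E was at 0 in every library, 5 in all had at most 3 counts in any library, and nearly all of the remaining signal was ALB (310 CPM in parental and 90.6 CPM in resistant cells). The summed level of these 9 was 320 to 332 CPM in parental and 103 to 106 CPM in resistant libraries, and its part in the mitochondrial values was not tested.

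Human mitochondrial DNA is a compact circle without introns. The polymerase POLRMT, with TFAM and TFB2M, transcribes each strand into long RNAs that span many genes. Enzymes then cut these RNAs at the tRNAs that lie between most mRNAs and rRNAs, and MTPAP adds short poly(A) tails to most of the mRNAs. The mRNAs encode core subunits of respiratory complex I (ND genes), complex III (CYB), complex IV (CO genes) and ATP synthase, or complex V (ATP genes). The rRNAs and tRNAs serve the mitochondrial ribosome. The libraries were made from RNA bound to oligo-dT. The rRNAs, the tRNAs and any mRNA without a tail were therefore counted only as far as they were carried through that step.

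Mitochondrial transcripts took a larger share of the counts in resistant than in parental libraries. They made up 4.20%, 4.19% and 4.21% of all counts in parental libraries 1 to 3, and 5.34%, 5.35% and 5.10% in resistant libraries 1 to 3. The groups did not overlap, and the difference of means was 1.07 percentage points (4.20% ± 0.00589 against 5.27% ± 0.140, SD, n = 3). Resistant library 3 was the lowest of its group, yet it lay well above every parental library. The 95% Wilson interval of a library's share was at most ± 0.0115 points, which covers counting error only. A higher mitochondrial and a lower nuclear RNA content give the same share, and in bulk libraries a change in which cells were sampled and a change in RNA per cell cannot be told apart.

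The higher share came mostly from the mRNAs. They went from 3.51% ± 0.00564 to 4.53% ± 0.134 of all counts, without overlap. The rRNAs made up 0.675% ± 0.0118 and 0.723% ± 0.0107, and the tRNAs 0.0127% ± 0.000331 and 0.0160% ± 0.000138, again with all resistant libraries above. Within the mitochondrial counts the composition moved toward mRNA. The rRNA part was 15.9%, 15.9% and 16.4% in parental libraries and 13.4%, 13.7% and 14.0% in resistant libraries, with all resistant libraries below (16.1% ± 0.258 against 13.7% ± 0.308). The tRNA part overlapped between the groups (0.303% against 0.304%). Other RNAs that are not expected to carry long poly(A) tails were also higher in the resistant libraries. Nuclear genes with histone symbols held 0.0121% of parental and 0.0148% of resistant counts, and nuclear rRNA and small noncoding RNA genes 0.0567% and 0.0660%. Whether the yield of the oligo-dT step differed between the groups, and its part in the mitochondrial shares, was not tested.

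**Figure D1:**
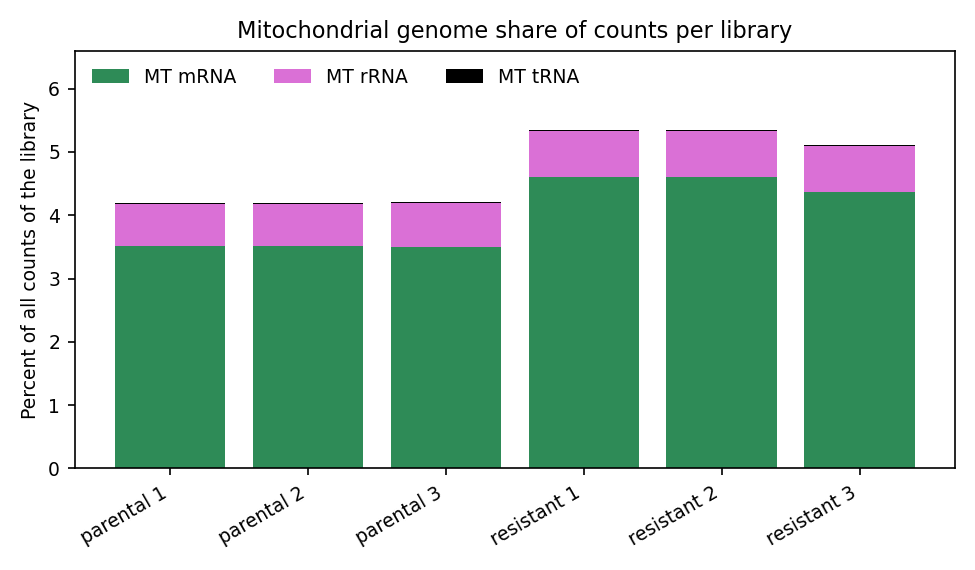
Percent of all counts of each library that fell on mitochondrial mRNAs, rRNAs and tRNAs, stacked, for the 3 parental and 3 resistant libraries. The parental bars end between 4.19% and 4.21% and the resistant bars between 5.10% and 5.35%, and the mRNA segment accounts for most of the difference.

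Mitochondrial genes were among the most abundant genes in these cells. MT-CO1 ranked 1 by mean CPM, and 6 of the 10 and 11 of the 100 most abundant genes were mitochondrial. Levels of the 13 mRNAs and 2 rRNAs were compared with each other as FPKM, which is CPM per kilobase of gene. The cytochrome c oxidase mRNAs stood highest. In parental cells MT-CO2 had 6591 ± 245 FPKM and MT-CO1 6534 ± 180 FPKM, and these overlapped. MT-CO3 followed with 4543 ± 50.5, and then MT-RNR2 with 3773 ± 63.2. MT-ND4 (3347 FPKM) and MT-ATP6 (3322 FPKM) overlapped, and MT-CYB (2360), MT-ND4L (2147), MT-ND2 (1656) and MT-ND1 (1536) came next without overlap between neighbors. MT-ND3 (1364), MT-ND6 (1283) and MT-ND5 (1254) overlapped with their neighbors in this order, and MT-RNR1 (881) and MT-ATP8 (93.0) stood lowest of these 15 genes.

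The order in resistant cells was nearly the same. MT-CO1 had 9335 ± 75.8 FPKM and MT-CO2 8872 ± 568, again with overlap, and MT-CO3 had 6257 ± 236. MT-RNR2 (4163) now overlapped with MT-ND4 (4041), whereas MT-ND4 no longer overlapped with MT-ATP6 (3521). MT-RNR1 (835) and MT-ATP8 (97.9) were again the lowest of the 15. Distance along the genome did not order these levels. Across the 12 mRNAs on the plus strand, parental FPKM and start position had a Spearman correlation of −0.10, given as a description because neighboring genes share transcripts and libraries.

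In a fit over all 17142 genes that passed the filter on low counts (edgeR's quasi-likelihood test, Benjamini-Hochberg adjusted p, FDR), 27 mitochondrial genes could be tested. Of these, 17 were higher in resistant cells at an FDR under 0.05, 1 was lower and 9 did not pass. Among all genes tested, 17.1% were higher and 18.4% lower. The mitochondrial genes had a median log2 fold change of 0.27, against 0.0038 over all genes. By overlap of CPM between the groups, 19 of the 27 had all resistant libraries above and 1 had all below, against 22.1% and 22.8% of all genes. The changes were modest. The largest absolute log2 fold change among the 27 was 0.90 (MT-TS1, which did not pass the FDR), so 0 passed both the FDR and an absolute log2 fold change of 1 by edgeR, a call that 2.53% of all genes passed upward and 2.84% downward. The fit had a biological coefficient of variation of 3.51%, so small differences passed the test. For reference, 194 nuclear genes were at least as abundant as MT-ND3. Of these, 87 were higher (44.8%) and 61 lower (31.4%), and their median log2 fold change was 0.04.

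**Figure D2:**
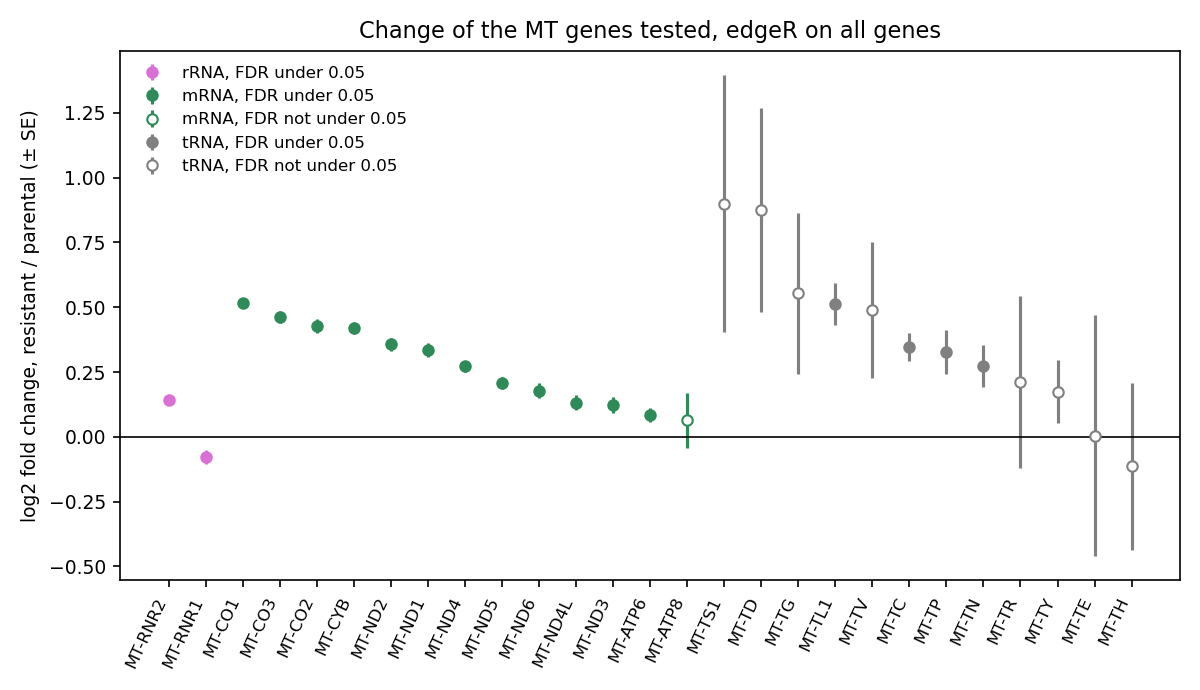
Log2 fold change of each tested mitochondrial gene, resistant over parental, with its standard error, by class. Filled points passed an FDR of 0.05. The mRNAs run from 0.51 (MT-CO1) down to 0.06 (MT-ATP8), MT-RNR1 is the only filled point below 0, and several tRNAs have wide errors.

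The 3 complex IV mRNAs, which encode the catalytic core of cytochrome c oxidase, had the largest increases among the mRNAs. MT-CO1 (ENSG00000198804, MT:5904-7445, plus strand) encodes the subunit that reduces oxygen. It had 10388, 9861 and 9976 CPM in parental libraries 1 to 3 and 14515, 14282 and 14386 CPM in resistant libraries 1 to 3. The groups lay far apart compared with the spread inside each, and the log2 fold change was 0.51 (SE 0.019, FDR = 5.10e-25), a 1.43-fold increase. MT-CO2 (MT:7586-8269), whose product receives electrons from cytochrome c, had 4323, 4549 and 4651 CPM in parental and 6379, 6193 and 5633 CPM in resistant libraries. Its log2 fold change was 0.43 (SE 0.027, FDR = 8.31e-17), with resistant library 3 the lowest of its group. MT-CO3 (MT:9207-9990) had 3579, 3517 and 3591 CPM against 5009, 5016 and 4692 CPM. It rose by 0.46 on the log2 scale (SE 0.022, FDR = 5.37e-21), without overlap. Summed over the 3 genes, complex IV mRNAs went from 18145 ± 192 to 25369 ± 606 CPM.

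MT-CYB (MT:14747-15887), the cytochrome b of complex III and the only subunit of that complex encoded in mitochondria, moved by nearly as much. It had 2760, 2685 and 2634 CPM in parental libraries and 3711, 3646 and 3462 CPM in resistant libraries. All resistant libraries were above, with a log2 fold change of 0.42 (SE 0.023, FDR = 5.73e-19).

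All 7 complex I mRNAs, which encode membrane subunits of NADH dehydrogenase, were higher in resistant cells, with a median log2 fold change of 0.21 and a range from 0.12 to 0.36. The pair at the start of the mRNA region changed most. MT-ND2 (MT:4470-5511) had 1729, 1737 and 1711 CPM in parental and 2275, 2261 and 2091 CPM in resistant libraries (log2 fold change 0.36, SE 0.025, FDR = 1.05e-15). MT-ND1 (MT:3307-4262) had 1446, 1514 and 1446 against 1890, 1932 and 1731 CPM (0.33, SE 0.027, FDR = 2.20e-13). In both genes the groups were well separated and resistant library 3 was again the lowest of its group.

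MT-ND4 (MT:10760-12137), the most abundant complex I mRNA, had 4683, 4580 and 4576 CPM in parental and 5693, 5729 and 5283 CPM in resistant libraries, a log2 fold change of 0.27 (SE 0.023, FDR = 3.20e-13). MT-ND5 (MT:12337-14148) had 2263, 2279 and 2275 against 2581, 2726 and 2560 CPM and rose by 0.21 (SE 0.022, FDR = 4.84e-10). Both were clear of overlap, with the parental libraries within a narrow band.

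The shortest complex I genes changed least. Of these, MT-ND4L lies on one mRNA with MT-ND4, so its CPM cannot be read as the level of a separate mRNA. MT-ND4L (MT:10470-10766), which shares its transcript with MT-ND4, had 656, 637 and 621 CPM in parental and 667, 733 and 697 CPM in resistant libraries, a log2 fold change of 0.13 (SE 0.029, FDR = 2.70e-04). MT-ND3 (MT:10059-10404) had 469, 453 and 493 against 511, 534 and 496 CPM, a log2 fold change of 0.12 (SE 0.030, FDR = 0.00113). For MT-ND3 the highest parental and the lowest resistant library nearly met. Both genes missed the FDR when limma was run on log2(FPKM + 1) (0.0774 and 0.0841).

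MT-ND6 (MT:14149-14673) is the only mRNA listed on the minus strand. It had 671, 711 and 639 CPM in parental and 785, 776 and 727 CPM in resistant libraries, with a log2 fold change of 0.18 (SE 0.030, FDR = 5.72e-06). Whether counting used strand is not given in the sources used here, so its reads cannot be told apart from reads of the opposite strand of the same stretch. How well the oligo-dT step captured MT-ND6 compared with the other mRNAs was not measured, which also limits its rank by level and its ratios to them.

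The complex V mRNAs, which encode the proton channel subunit a (MT-ATP6) and a small membrane subunit (MT-ATP8) of ATP synthase, overlapped between the groups. MT-ATP6 (MT:8527-9207) had 2183, 2337 and 2267 CPM in parental and 2494, 2475 and 2224 CPM in resistant libraries, since resistant library 3 lay below 2 of the parental libraries. Its log2 fold change was 0.08 (SE 0.028, FDR = 0.0168). That call was lost with DESeq2 (FDR = 0.321), with limma on log2(FPKM + 1) (0.339), with library size alone (0.0582), and without parental replicate 1 (0.0877), resistant replicate 1 (0.181) or resistant replicate 2 (0.166).

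MT-ATP8 (MT:8366-8572) had 20.5, 22.2 and 15.1 CPM in parental and 17.7, 19.0 and 24.0 CPM in resistant libraries. It did not pass the test (log2 fold change 0.06, SE 0.106, FDR = 0.689). Its CPM was by far the lowest among the 13 mRNA genes. MT-ATP8 shares 46 bases with MT-ATP6 and both lie on one mRNA, so its CPM cannot be read as the level of a separate mRNA. How reads in shared bases were assigned is not given in the sources used here. All 13 mRNAs had a positive log2 fold change, and 12 of them passed upward. Without parental replicate 3 or resistant replicate 3, the value of MT-ATP8 turned to −0.0728 or −0.0778.

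**Figure D3:**
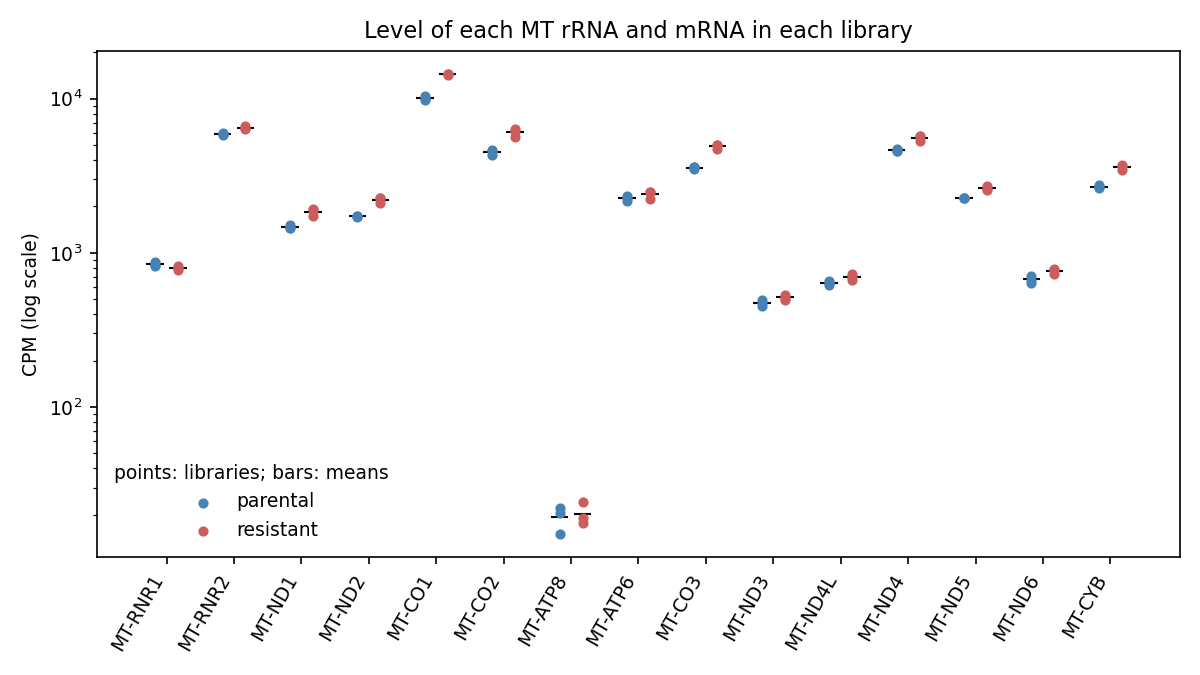
CPM of the 2 rRNAs and 13 mRNAs in each library on a log axis, in the order of the genome, with points for libraries and bars for group means. The resistant points of MT-CO1 lie between 14282 and 14515 CPM and the parental points between 9861 and 10388 CPM, while the points of MT-ATP6 and MT-ATP8 overlap.

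The size of the change went with gene length and level. Across the 13 mRNAs, the log2 fold change had a Spearman correlation of 0.64 with gene length and 0.68 with parental FPKM, and of −0.22 with start position over the 12 plus-strand mRNAs. These are descriptions over genes that share libraries and transcripts, and length and level cannot be separated with so few genes. Of 199 nuclear protein-coding genes under 500 bases, 11 could be tested. Their median log2 fold change was 0.23, 3 of them passed upward (27.3%, against 17.1% of all genes) and the other 8 did not pass.

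The 2 rRNAs went in opposite directions. MT-RNR2 (ENSG00000210082, MT:1671-3229), the large-subunit rRNA, had 5870, 5790 and 5986 CPM in parental and 6462, 6612 and 6396 CPM in resistant libraries. All resistant libraries were above, and the log2 fold change was 0.14 (SE 0.020, FDR = 1.22e-07). MT-RNR1 (MT:648-1601), the small-subunit rRNA, had 825, 830 and 868 CPM in parental and 776, 798 and 816 CPM in resistant libraries. It was the only mitochondrial gene that passed the FDR as lower, with a log2 fold change of −0.08 (SE 0.026, FDR = 0.0160), and all of its resistant libraries were below the parental ones by a small margin. The call on MT-RNR1 was lost with limma on log2(FPKM + 1) (FDR = 0.131) and without parental replicate 3 (0.124), resistant replicate 1 (0.137) or resistant replicate 2 (0.0533), although its sign stayed negative in all 18 alternatives.

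The 13 mRNAs, MT-RNR1 and MT-RNR2 were also compared with the library sizes replaced by the summed count of the mitochondrial mRNAs. This scale asks whether a gene moved by more or less than the mRNAs as a whole. Each mRNA is part of its own denominator, and MT-CO1 alone made up 28.8% of the sum in parental and 31.6% in resistant cells. The rise of MT-CO1 thus lowers the values of the other genes on this scale. On this scale the median of all 17142 genes was −0.38, with 3.7% of all genes higher and 66.1% lower. Of the 27 mitochondrial genes, 2 were higher, 9 lower and 16 did not pass. MT-CO1 (0.13, SE 0.029, FDR = 4.92e-05) and MT-CO3 (0.08, FDR = 0.0194) were higher. The call on MT-CO3 was lost without parental replicate 1 (FDR = 0.0556), parental replicate 2 (0.108), resistant replicate 1 (0.0543) or resistant replicate 2 (0.0719), which left 1 gene higher in those fits.

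The genes that lagged behind were both rRNAs, 5 complex I mRNAs and both complex V mRNAs. MT-RNR1 lagged most (−0.46, FDR = 6.46e-19), then MT-ATP8 (−0.31, FDR = 0.00499), MT-ATP6 (−0.30, FDR = 7.47e-13), MT-ND3 (−0.26, FDR = 6.09e-09), MT-ND4L (−0.25, FDR = 1.23e-08) and MT-RNR2 (−0.24, FDR = 6.20e-11). MT-ND6 (−0.20, FDR = 1.08e-06), MT-ND5 (−0.18, FDR = 1.67e-06) and MT-ND4 (−0.11, FDR = 8.11e-04) lagged by less. MT-CO2 (0.04, FDR = 0.207), MT-CYB (0.04, FDR = 0.282), MT-ND2 (−0.03, FDR = 0.469) and MT-ND1 (−0.05, FDR = 0.184) did not pass. In 6 of 9 alternatives MT-CO2 did not pass either, and in 8 of 9 MT-CYB did not. In the rest they passed as higher, and with other denominators their values reached 0.098 and 0.092. The call on MT-ATP8 was lost without parental replicate 2 (FDR = 0.0979) or resistant replicate 1 (0.0839). A negative value here says that a gene rose less than the mRNA sum, and apart from MT-RNR1 no mitochondrial gene passed as lower on the scale of all genes.

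Counted as shares of the mitochondrial mRNA counts, complex IV went from 51.9% ± 0.423 to 55.6% ± 0.564 and complex I from 33.9% ± 0.221 to 31.2% ± 0.466. Complex V went from 6.52% ± 0.250 to 5.30% ± 0.163, and complex III from 7.70% ± 0.150 to 7.90% ± 0.0611. None of these shares overlapped between the groups. Complex III and IV shares were higher in all resistant libraries and complex I and V shares lower. The shares sum to the whole, so they do not move independently.

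**Figure D4:**
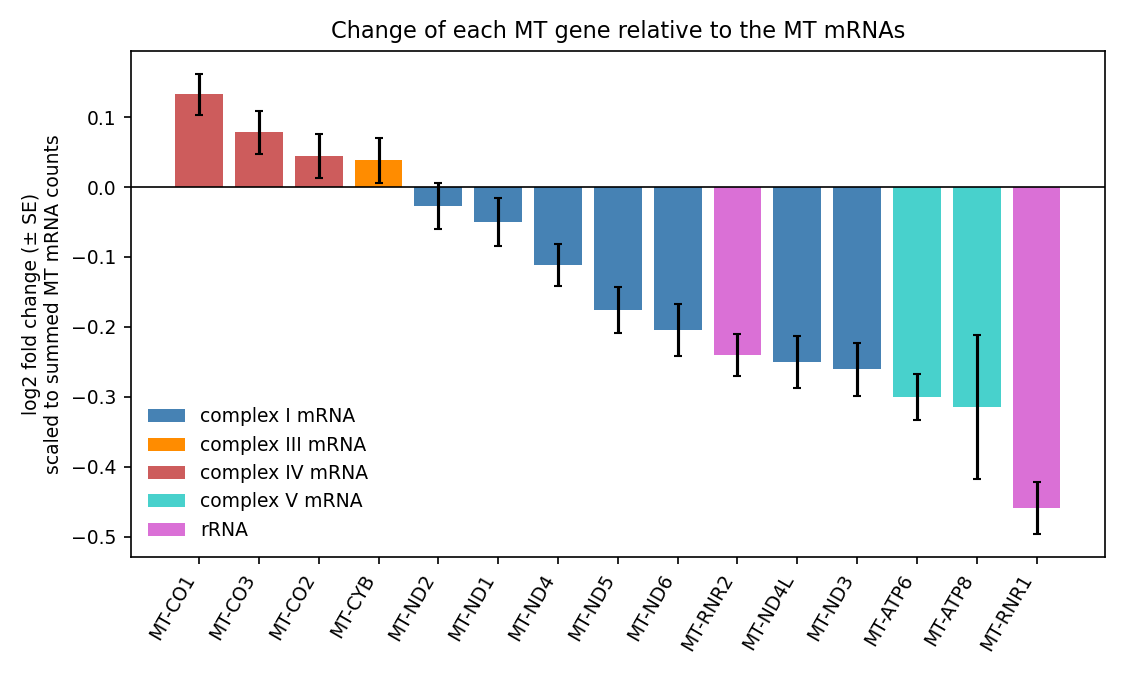
Log2 fold change, resistant over parental, of each mitochondrial rRNA and mRNA after scaling to the summed mitochondrial mRNA counts, with its standard error, ordered by value and colored by complex. The complex IV bars lie at the top (0.13 for MT-CO1), the complex V bars near −0.30 and MT-RNR1 at −0.46.

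The tRNAs, the adaptors of mitochondrial translation, were sparsely counted. The 5 tRNAs with more than 100 counts in every library (MT-TC, MT-TN, MT-TL1, MT-TP and MT-TY) held 92.3% of all mitochondrial tRNA counts, and the other 17 had under 100 counts in every library. MT-TL1 (MT:3230-3304), the leucine tRNA between MT-RNR2 and MT-ND1, had 331, 329 and 257 counts in parental and 442, 371 and 486 counts in resistant libraries. It rose by 0.51 on the log2 scale (SE 0.081, FDR = 1.86e-06). MT-TC (MT:5761-5826), the cysteine tRNA, had 867, 796 and 676 against 1065, 889 and 995 counts and rose by 0.35 (SE 0.054, FDR = 1.60e-06). Scaled to library size, neither gene overlapped between the groups.

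The proline tRNA MT-TP (MT:15956-16023) had 337, 342 and 239 counts in parental and 383, 382 and 373 counts in resistant libraries, a log2 fold change of 0.33 (SE 0.084, FDR = 0.00191). The asparagine tRNA MT-TN (MT:5657-5729) had 388, 338 and 297 against 453, 403 and 369 counts and a value of 0.27 (SE 0.083, FDR = 0.00814). MT-TN missed the FDR without parental replicate 2 (0.0571), resistant replicate 1 (0.0630) or resistant replicate 2 (0.0595). The tyrosine tRNA MT-TY had a value of 0.17 and did not pass (FDR = 0.287), although all of its resistant CPM values were above the parental ones. MT-TC, MT-TN, MT-TY and MT-TP are listed on the minus strand, so without a stated strand setting their reads cannot be told apart from plus-strand precursor RNA. All 4 of the tRNAs that passed were among these 5 well counted ones.

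The other 7 tested tRNAs did not pass. MT-TS1 (0.90), MT-TD (0.88), MT-TG (0.55) and MT-TV (0.49) had positive values with wide errors. MT-TR (0.21), MT-TE (0.01) and MT-TH (−0.11) lay nearer to 0. Without parental replicate 1, MT-TS1 reached 1.74 (FDR = 0.0326), from 4 and 3 counts in the parental libraries left. The 10 tRNAs not tested had at most 15 counts in a library, and MT-TS2 had 0 in every library, where 3 counts correspond to 0.174 to 0.216 CPM. At this depth a change in these genes was not detectable.

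Near-identical copies of mitochondrial genes in the nuclear genome can share reads with the members. The table lists 407 such genes by symbol. Of these, 110 had counts, and together they held 0.672% ± 0.0339 as many counts as the mitochondrial genes in parental and 0.579% ± 0.0453 in resistant libraries. MTATP6P1 (1:633696-634376) was the highest, with 2918, 2623 and 2476 counts in parental and 3099, 2622 and 2302 in resistant libraries (log2 fold change 0.01, FDR = 0.905). MTND2P28 (1:629640-630683) had 1269, 1321 and 1125 against 860, 1553 and 1667 counts (0.15, FDR = 0.301), and these overlapped. MTCO1P12 (1:631074-632616) had 479, 360 and 413 against 684, 610 and 568 counts and rose by 0.58 (SE 0.084, FDR = 3.04e-07).

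MTCO1P12 was the only one of 8 copies tested that passed. MTRNR2L4 (0.77, FDR = 0.0616), MTCO1P28 (0.58, FDR = 0.156) and MTND1P8 (0.61, FDR = 0.175), all on chromosome 16, did not. When the counts of all 110 copies were added to their mitochondrial counterparts, the members still gave 17 genes higher and 1 lower, and MT-CO1 kept a log2 fold change of 0.52. How reads with several matches were counted is not given in the sources used here.

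The nuclear lists covered mitochondrial transcription, RNA processing, translation, DNA maintenance and biogenesis. Pooled over all of these lists, their genes were called at shares below those of all genes. Of 115 genes on 8 lists, 114 were tested. Of these, 15 were higher (13.2%, against 17.1% of all genes), 13 were lower (11.4%, against 18.4%) and 86 did not pass, and their median log2 fold change was 0.01. The lists differed in direction. Of the 13 lower genes, 6 were on the DNA replication and maintenance list and 4 on the biogenesis list. Of the 15 higher genes, those lists held 1 and 0. The pooled shares thus do not describe the lists of RNA synthesis, processing and translation alone. The single lists held 5 to 23 tested genes, so 1 gene can move a share by several points. Among the transcription genes, the polymerase POLRMT had 123, 119 and 120 CPM in parental and 123, 129 and 125 CPM in resistant libraries (0.06, FDR = 0.262). The packaging and initiation factor TFAM had 75.5, 74.4 and 78.0 against 70.4, 71.9 and 74.6 CPM (−0.07, FDR = 0.262), and the elongation factor TEFM had a value of 0.17 (FDR = 0.285). The initiation factor TFB2M was lower, with 68.3, 64.3 and 64.3 CPM against 63.7, 56.0 and 59.0 CPM (−0.14, SE 0.053, FDR = 0.0395). MTERF1, which binds downstream of the rRNA genes, was higher (0.22, FDR = 0.0319). These 2 were the only calls among 9 genes.

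Among processing genes, 1 of 5 cleavage genes and 2 of 17 stability and polyadenylation genes were higher, against 17.1% of all genes. The cleavage gene FASTKD5, needed for mRNA ends that lack a tRNA, was higher (0.19, FDR = 0.0235). The tRNA-end nucleases' components TRMT10C (0.04) and ELAC2 (0.08) did not pass. Among the stability genes, PTCD2 (0.19) and FASTK (0.10), the latter needed for MT-ND6 mRNA, were higher and FASTKD1 was lower (−0.22). The mRNA stabilizers LRPPRC (−0.01) and SLIRP (−0.12) and the poly(A) polymerase MTPAP (−0.12, FDR = 0.0916) did not pass.

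Of 18 tRNA maturation genes, TRMT1 (0.33), TRNT1 (0.31), which adds the CCA end, and TRMT2B (0.25) were higher and GTPBP3 was lower (−0.13), so that 16.7% were higher, against 17.1% of all genes. Of 18 genes of rRNA modification and assembly, 3 were higher, the same share, and 15 did not pass. MTERF4, which acts in ribosome assembly, rose from 90.2 ± 1.63 to 123 ± 4.25 CPM (0.45, SE 0.041, FDR = 5.09e-12). MRM1 (0.31), a large-subunit rRNA methyltransferase, and TRUB2 (0.26) were the others. Of 12 translation factors, GFM1 (0.33, FDR = 1.31e-08), GFM2 (0.14), MRRF (0.14) and TUFM (0.10) were higher (33.3%, against 17.1% of all genes) and the other 8 did not pass.

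Genes of mitochondrial DNA replication and of biogenesis had more members lower than higher. Of 23 replication and maintenance genes, 6 were lower (26.1%, against 18.4% of all genes) and 1 was higher (4.35%, against 17.1%). The DNA polymerase POLG had 118, 120 and 117 CPM in parental and 109, 107 and 99.2 CPM in resistant libraries (−0.18, SE 0.041, FDR = 5.37e-04). DNA2 (−0.39, FDR = 1.07e-06), TYMP (−0.40), SLC25A36 (−0.19), TOP1MT (−0.18, FDR = 0.0338) and FEN1 (−0.11) were lower too. TOP1MT is the mitochondrial topoisomerase I. RRM2B, a ribonucleotide reductase subunit, was higher (0.33, FDR = 3.91e-06), and the helicase TWNK did not pass (0.07, FDR = 0.396). Of 14 biogenesis and mass genes, 13 were tested, 4 were lower (30.8%, against 18.4% of all genes) and 9 did not pass. YY1 (−0.24, FDR = 1.06e-07), GABPB1 (−0.25), GABPA (−0.20) and the outer membrane channel VDAC2 (−0.14) were the lower ones. The number of mitochondrial DNA copies was not measured.

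**Figure D5:**
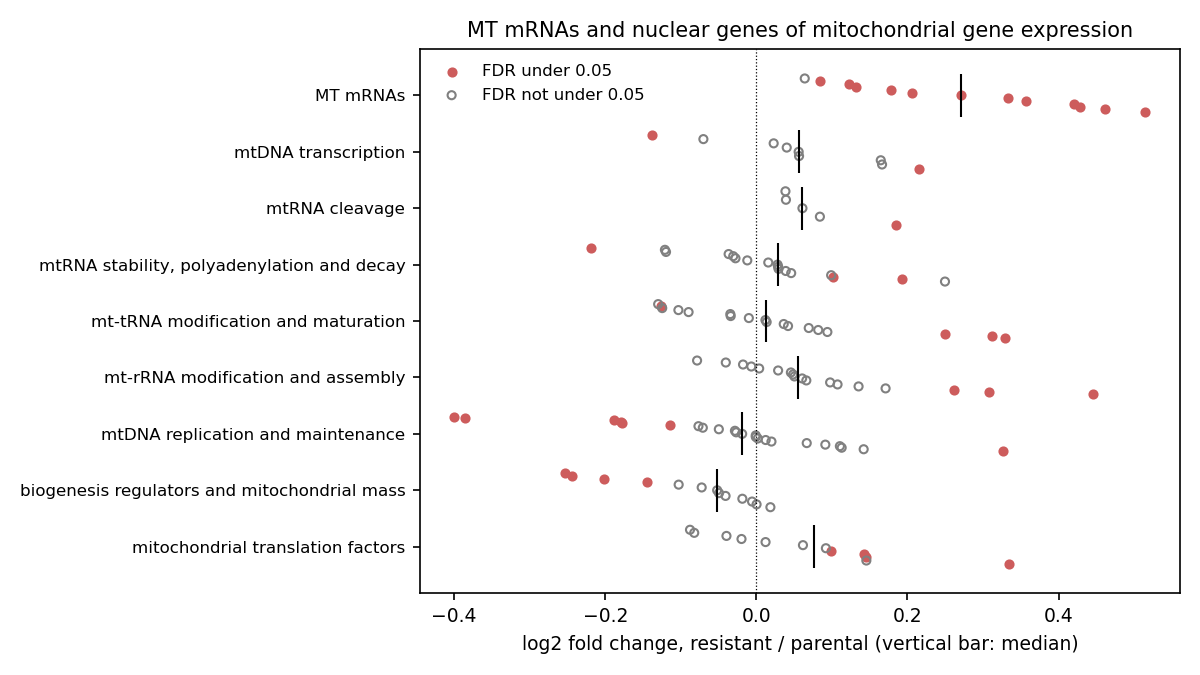
Log2 fold change, resistant over parental, of the 13 mitochondrial mRNAs and of each tested gene on the 8 nuclear lists, 1 point per gene, with the median of each list as a vertical bar and filled points for an FDR under 0.05. The mRNAs have a median of 0.27, and the medians of the nuclear lists lie between −0.05 and 0.08.

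Nuclear genes for subunits of the same complexes had smaller values at the median than the mitochondrial mRNAs. Of 73 tested, 17 were higher (23.3%, against 17.1% of all genes), 4 were lower (5.48%, against 18.4%) and 52 did not pass, with a median log2 fold change of 0.04. For complex IV, whose mitochondrial mRNAs had log2 fold changes of 0.43 to 0.51, 2 of 11 nuclear subunit genes were higher (18.2%), NDUFA4 by 0.25 and COX7A2 by 0.14. Complex III had 4 of 9 higher (44.4%) and ATP synthase 5 of 16 (31.2%). The 16 and the 73 include ATP5IF1 (0.10, FDR = 0.0169), an inhibitor of ATP synthase and not a subunit. Complex I had 6 of 37 higher (16.2%) and 4 lower (10.8%). The shares of higher genes in complexes I and IV thus lay near that of all genes. The summed level of the 73 nuclear genes went from 12291 ± 50.7 to 12726 ± 21.7 CPM, whereas the mitochondrial mRNAs went from 34982 ± 163 to 45619 ± 1400 CPM. The mitochondrial part of both sums together was 74.0%, 73.9% and 74.0% in parental libraries and 78.5%, 78.5% and 77.6% in resistant libraries, without overlap.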

How the data were processed

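RNA-Seq counts of 6 libraries were analyzed. Messenger RNA was isolated with oligo-dT from total RNA. According to the submitters' processing notes and the methods, the authors used fastp, HISAT2 (2.0.5, hg38) and featureCounts (1.5.0-p3) and deposited raw counts per gene with name, position, length and biotype. The strand setting, annotation release and treatment of reads with several matches are not given in the sources used here. The table names control columns "Parent", which were matched to the libraries labelled Control. Of its per-sample columns, 0 were left unused.

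Low counts were removed with filterByExpr, library sizes were adjusted by TMM, and resistant libraries were compared with parental ones by the quasi-likelihood test of edgeR (version 4.0.16, R 4.3.3), with Benjamini-Hochberg adjustment over 17142 genes. CPM used TMM-adjusted library sizes, and FPKM divided CPM by the authors' listed gene length, which is a quantity of another kind. A log2 fold change divided by the root of its F statistic gave the SE. A second fit replaced library size by the summed count of mitochondrial mRNAs. The precision of each value is set by library totals of 13821639 to 17251491 counts, and intervals cover counting error only. Pairs of libraries differed by 1.77 to 2.45 times the sampling noise (chi-square per degree of freedom) within groups and 20.0 to 23.8 between groups, so all 6 were kept as separate.

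The members and lists were chosen with earlier results of these data known. All mitochondrial mRNAs and rRNAs, and the tested tRNAs, are named. Of nuclear copies, the 6 with the highest mean are named. Each list gives up to 3 genes in each direction past an FDR of 0.05 by size of change, plus fixed genes (POLRMT, TFAM, TFB2M, TEFM, LRPPRC, SLIRP, MTPAP, TRMT10C, ELAC2, POLG, TWNK, TOP1MT). VDAC2, TUFM, FEN1, ALB and CD3E were named after their values were seen.

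Alternatives were limma-voom and limma-trend (limma 3.58.1), DESeq2 (1.42.0), limma on log2(FPKM + 1), library size alone, upper quartile, TMM from nuclear genes, every gene unfiltered, a minimum of 10 counts per library, coding and mitochondrial genes only, a replicate block, leaving out each library, and other denominators. Scripts were tested on simulated counts.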

Additional observations from a re-analysis of the deposited data

How the results depend on the processing

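MT-CO1, MT-CO2, MT-CO3, MT-CYB, MT-ND1, MT-ND2, MT-ND4, MT-ND5, MT-ND6 and MT-RNR2 kept their direction and an FDR under 0.05 in all 18 alternatives, and the number of mitochondrial genes higher stayed between 15 and 17. The number lower was 0 with limma on log2(FPKM + 1) and 0 to 1 when libraries were left out in turn (0 without parental replicate 3, resistant replicate 1 or resistant replicate 2). The number past the FDR and an absolute log2 fold change of 1 was 0, and 0 to 1 when libraries were left out (MT-TS1 without parental replicate 1). Scaled to the mitochondrial mRNAs, 2 genes were higher, 4 with all mitochondrial counts as denominator, and 1 to 3 when libraries were left out. The difference in the rRNA part of mitochondrial counts was −2.34 percentage points, −1.65 when computed per base of gene, and −2.49 to −2.18 when libraries were left out. The difference in the mitochondrial share ranged from 1.03 to 1.15 points. Signs turned only for values that had not passed the FDR. MT-TE was −0.0040 with DESeq2 and −0.0120 with library size alone, and −0.498 to 0.896 when libraries were left out, MT-TH −0.476 to 0.325 and MT-ATP8 −0.0778 to 0.176. Relative to the mitochondrial mRNAs, MT-ND2 was 0.0126 with all mitochondrial counts as denominator and 0.0263 with plus-strand mRNAs other than MT-CO1, where MT-ND1 was 0.0034. The call on MT-ND4 was lost there (FDR = 0.243). A new denominator rescales every gene at once, so these shifts relative to the mitochondrial mRNAs come from the choice of scale. Why the other signs turned was not tested. Over the alternatives, 10 to 19 nuclear list genes were higher and 10 to 17 lower. The replicate numbers do not pair the libraries (correlations of same-numbered deviations −0.0081, −0.0196 and −0.0157). The replicate block gave 17 mitochondrial genes higher and 1 lower, and relative to the mitochondrial mRNAs 2 higher and 9 lower.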

Other observations

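Ratios between genes of the same precursor RNA, taken per base in each library, gave a further view of the mitochondrial transcripts. MT-RNR2 and MT-RNR1, which are neighbors on the heavy-strand transcript, had a ratio of 4.35, 4.27 and 4.22 in parental and 5.09, 5.07 and 4.80 in resistant libraries, without overlap. MT-ND4 and MT-ND4L are carried by one mature mRNA, yet their ratio was 1.54, 1.55 and 1.59 in parental and 1.84, 1.68 and 1.63 in resistant libraries, also without overlap. The ratio of MT-CO1 to MT-ND1 was 4.45, 4.04 and 4.28 against 4.76, 4.58 and 5.15. The ratios of MT-CO1 to MT-CO2 (means 0.993 and 1.06), of MT-CO1 to MT-CO3 (1.44 and 1.49) and of MT-ATP6 to MT-ATP8 (36.7 and 36.8) overlapped between the groups. MT-ND6, from the other strand, had 1.94, 2.08 and 1.87 counts per 100 counts of the other 12 mRNAs in parental libraries, and 1.72, 1.70 and 1.68 in resistant libraries, all below. No p-value was computed for these ratios.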
